A study of Sus scrofa with 2 samples.

Results

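Ribosomal protein genes encode the proteins of the cytosolic ribosome, and were placed here against the loops and domains of pig spleen chromatin. A gene was taken as a member if it was protein-coding and its symbol was RPL or RPS followed by a digit, or was RPLP0, RPLP1, RPLP2 or RPSA. RPS6K kinases and like-named paralogs such as RPL26L1 were left out. The rule found 77 genes among 19550 protein-coding genes on the placed chromosomes of the pig assembly Sscrofa11.1, 46 of the large and 31 of the small subunit. They carried 76 symbols, because RPL18 was listed at 2 places: a gene of 4329 bases on chromosome 6 and an entry of only 600 bases on chromosome 1. RPL41 had no entry in the gene table used and was not analysed here.

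The measurements were in situ Hi-C contacts of spleen tissue from Sus scrofa in 2 biological replicates, a single group with no treatment or genotype named in the labels. In Hi-C, pieces of DNA that touch inside the fixed nucleus are ligated and read as pairs. The deposited lists hold 3410 chromatin loops, pairs of 25 kb anchors with more contacts than their surroundings, and 1927 topologically associating domains (TADs), stretches that contact themselves more than their flanks. Both lists cover the series as a whole, so no value per replicate could be given and no difference could be set against the spread between replicates. Sequencing depth is unknown here, and precision can be judged only from the contacts behind each loop, which ran from 10 to 1004 over the whole list. Spleen is a mixture of lymphocytes, macrophages, red cells and stroma, and the lists do not separate these cells. Hi-C measures contact and not expression, so no RNA level of any gene is known from these data.

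As background, a ribosome holds 1 copy of nearly every ribosomal protein, and cells keep the output of these scattered genes in balance. Their promoters are active in almost all cells. Their mRNAs start with a pyrimidine tract, the 5′ TOP motif, through which mTOR and LARP1 control translation. Several of the proteins also act outside the ribosome: free RPL5 and RPL11 bind MDM2 and so stabilise p53. Heterozygous loss of many of these genes causes Diamond-Blackfan anaemia, a failure of red cell production.

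The genes were spread over 17 of the 20 placed chromosomes, with 12 on chromosome 6, 10 on chromosome 1 and 8 on chromosome 2. RPL19 and RPL23 on chromosome 12, a pair of neighbouring members, were 246 kb apart. The genes were short, with a median span of 3.90 kb against 20.7 kb for all protein-coding genes. They lay in somewhat denser surroundings, with a median of 19 ends of other protein-coding genes within 250 kb of the gene's midpoint against 15.

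Of the 77 ribosomal protein genes, 19 had at least 1 of their 2 annotated ends in a loop anchor, a share of 24.7% (95% Wilson interval 16.4 to 35.4%). Over all protein-coding genes the share was 17.3%, which lies inside that interval. The interval takes genes as independent and covers the number of genes only. No share or median was tested, since the lists give no values per sample. In 13 of the 19, both ends lay in an anchor. Large-subunit genes were at anchors in 13 of 46 cases (28.3%) and small-subunit genes in 6 of 31 (19.4%, interval 9.19 to 36.3%). The intervals of the subunits overlap. The remaining 58 genes had no loop in the list, among them RPS6, the small-subunit protein phosphorylated downstream of mTOR, and RPS19, the first gene tied to Diamond-Blackfan anaemia. RPLP0, RPLP1 and RPLP2, the acidic stalk proteins that recruit translation factors, had none either.

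Over all protein-coding genes the share at anchors was lowest in the shortest quartile by length, with 18.7, 19.4 and 18.3% in length quartiles 2 to 4. It also differed between quartiles of gene density. The part of length and density in the result was not tested. A short gene has its 2 ends in nearly the same place, and the bearing of this on the share was not tested. Among the shortest quartile of protein-coding genes (up to 6994 bases), 12.8% of 4889 genes were at an anchor, and 15 of the 68 ribosomal protein genes of that quartile were (22.1%, interval 13.8 to 33.3%). Many short genes are unnamed loci, and among the 2951 short genes with a name the share was 15.6%. Density showed no single trend: from the sparsest to the densest quartile the share of all genes was 14.8, 20.2, 18.3 and 16.1%. The ribosomal protein genes at anchors in those quartiles were 3 of 15, 7 of 19, 3 of 18 and 6 of 25.

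**Figure D1:**
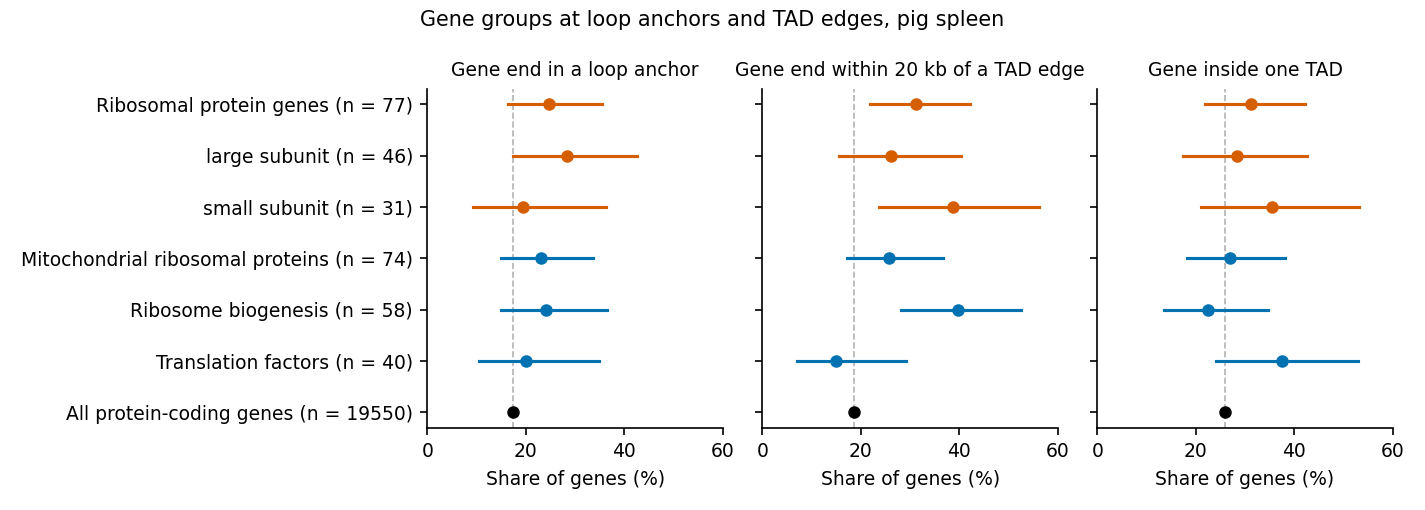
Share of genes (%, dots) with an end in a loop anchor, with an end within 20 kb of a TAD edge, or inside a TAD, with 95% Wilson intervals (lines) that take genes as independent; the dashed line is the share of all protein-coding genes. The ribosomal protein genes stood at 24.7, 31.2 and 31.2% against 17.3, 18.7 and 26.0%.

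The 19 genes took part in 26 listed loops, 14 genes with 1 loop, 3 with 2 and 2 with 3. No loop had a ribosomal protein gene at both anchors, and no anchor held ends of 2 of these genes. The 26 loops fell into 21 groups of touching pixels, so some are neighbouring pixels of a single contact. Their anchors were a median of 125 kb apart (quartiles 100 and 194 kb), against 175 kb (125 and 275 kb) over 3261 autosomal loops. The median loop had 132 observed contacts, with a range from 21 to 214, against 109 over autosomal loops. Its ratio of observed to expected contacts, where the expectation comes from the ring of pixels around the loop, had a median of 1.98 against 2.0. The ribosomal protein gene loops were therefore shorter and fuller by median, at a like ratio. Expected contacts were also higher, with a median of 65.7 against 53.7, and the part of the shorter spans in these contacts was not tested.

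**Figure D2:**
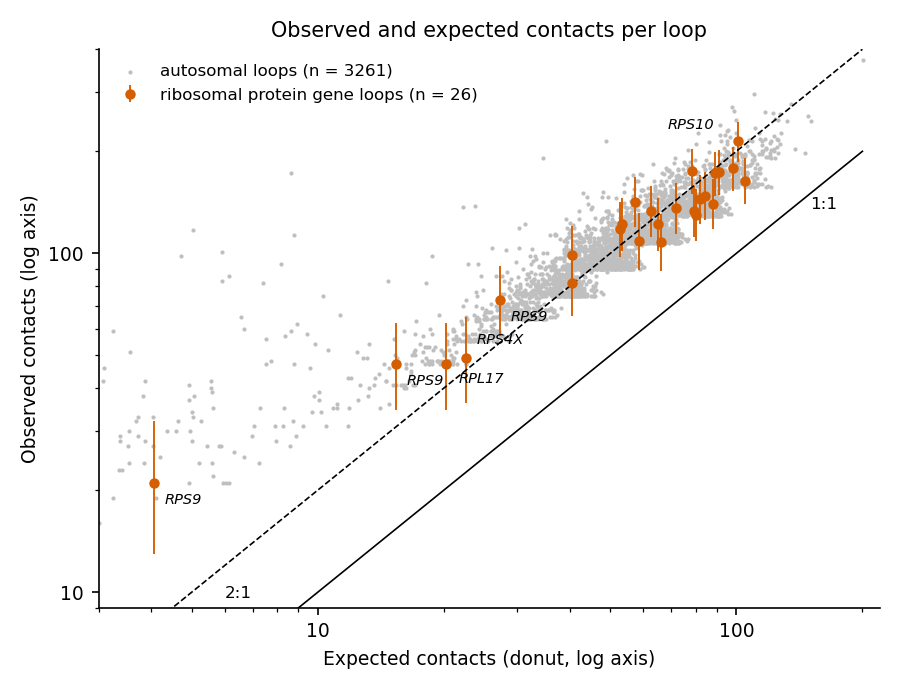
Observed against expected contacts (log axes) of the 26 loops with a ribosomal protein gene end in an anchor (orange, bars are exact 95% Poisson intervals for counting error only) and of autosomal loops (grey; 52 of 3261 lie outside the axes). Most orange points lie near the 2:1 line at 40 or more expected contacts. The loops of RPS9, RPL17 and RPS4X have fewer observed and expected contacts and lie above that line.

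The most loops per gene, 3, were listed for RPL11 and RPS9, both on chromosome 6. RPL11 is the large-subunit protein that joins RPL5 and 5S rRNA and binds MDM2 when ribosome assembly fails. Its anchor, from 81500001 to 81525000, had 3 loops to both sides. Towards lower coordinates, 140 contacts (exact 95% Poisson interval 118 to 165) against 88.1 expected joined it over 125 kb to an anchor with an end of E2F2, a transcription factor of the cell cycle. A further 164 contacts (140 to 191) against 105 expected joined it over 100 kb to the next anchor, which held an end of ID3, an inhibitor of helix-loop-helix factors in lymphocyte development. These 2 loops touch in the list and were not separate contacts by that measure. On the other side, 108 contacts (88.6 to 130.4) against 66.2 expected reached an anchor with an end of LYPLA2, among others. The largest of the 4 FDR values in the authors' deposited table was 0.00658, 0.02 and 0.0728 for these loops. All 3 ratios, from 1.56 to 1.63, were below the median of the 26 loops. Poisson intervals here and below cover counting error only.

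The 3 loops of RPS9, a small-subunit protein at the mRNA entry site, included the loop with the fewest contacts of the set. The gene lay across 2 adjoining anchors from 55900001 to 55950000. Over 100 kb, 73 contacts (57.2 to 91.8) against 27.3 expected led to an anchor with ends of PRPF31, a splicing factor, TFPT, NDUFA3 and OSCAR, a receptor of myeloid cells. The other 2 spanned 2825 kb, with 21 contacts (13.0 to 32.1) against 4.07 expected and 47 (34.5 to 62.5) against 15.4 expected. They led to 2 adjoining anchors from 58725001 to 58775000 that held ends of unnamed loci only. Of the 13 loops of 1 Mb or longer on chromosome 6, 11 lay between 53 and 60 Mb with spans of 2125 to 2825 kb, these 2 among them. No other loop of a ribosomal protein gene reached 1 Mb.

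RPS10 on chromosome 7 had the loop with the most contacts of all 26. This small-subunit protein sits by the mRNA entry channel and is ubiquitinated when ribosomes stall. Its anchor, from 30425001 to 30450000, was joined over 100 kb to an anchor with ends of HMGA1, an architectural chromatin protein, and NUDT3, by 214 contacts (186 to 245) against 101 expected. Its FDR in the authors' deposited table was 4.62e-10. The neighbouring pixel at 125 kb had 174 contacts (149 to 202) against 90.9 expected and also held an end of HMGA1. The anchor of RPS10 held no other named gene.

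RPL3, which lies by the peptidyl transferase centre, had 2 touching loops on chromosome 5 from the anchor 8925001 to 8950000. They had 172 contacts (147 to 200) against 89.0 expected over 100 kb and 175 (150 to 203) against 78.2 expected over 125 kb. The farther anchor held an end of CBX7, a Polycomb protein, and the nearer held no protein-coding gene end. Both loops joined the 2 edges of the TAD from 8920001 to 9060000. Their FDR values in the authors' deposited table were 4.57e-08 and 1.09e-08.

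RPL31, a protein at the exit of the ribosomal tunnel, had 2 touching loops on chromosome 3 from the anchor 53275001 to 53300000, which it shared with TBC1D8 and NPAS2. One, with 142 contacts (120 to 167) against 57.3 expected over 200 kb, reached an end of CNOT11, of the CCR4-NOT complex that shortens mRNA tails. The other had 122 contacts (101 to 146) against 53.2 expected over 175 kb and reached no gene end. The first had a ratio of 2.48, the highest of the set apart from the loops of RPS9. Its FDR in the authors' deposited table was 1.71e-07.

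The other 14 genes had 1 loop each. RPL13A, which in myeloid cells can leave the ribosome to silence inflammatory mRNAs after interferon gamma, had 178 contacts (153 to 206) against 98.0 expected over 150 kb. The partner anchor on chromosome 6, from 54700001 to 54725000, held ends of IRF3, a transcription factor of the interferon response, and of PRMT1, SCAF1 and BCL2L12. RPS27, a zinc-binding small-subunit protein, had 148 contacts (125 to 174) against 84.2 expected with an anchor on chromosome 4 that held ends of TPM3, a tropomyosin, and NUP210L. RPL26, a protein at the tunnel exit, shared its anchor with NDEL1 and RNF222 and had 145 contacts (122 to 171) against 81.8 expected with an anchor that held no gene end. RPL24, which bridges the subunits, had 136 contacts (114 to 161) against 71.8 expected with an anchor holding ends of TRMT10C and SENP7. RPL18 on chromosome 6 had 133 contacts (111 to 158) against 79.4 expected with an anchor holding ends of GRIN2D and GRWD1, and its short entry on chromosome 1 lay 1650 kb from any anchor.

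For 7 of the remaining 9 the contacts ran from 82 for RPS7, another protein that binds MDM2, to 133 for RPL6. Among those in between were RPL37A with 99, RPL22, whose loss disturbs T cell development, with 109, RPL4 with 122 and RPL27 with 130. Partner anchors held ends of IGFBP2 and IGFBP5 for RPL37A, ACOT7 for RPL22, TIPIN and DIS3L for RPL4, NBR1 and TMEM106A for RPL27, and TRAPPC12 and EIPR1 for RPS7. That of RPL6 held no protein-coding gene end. The 2 thinnest single loops were those of RPL17 and RPS4X. RPL17, which lines the ribosomal tunnel, had 47 contacts (34.5 to 62.5) against 20.3 expected over 900 kb, with an anchor holding an end of CXXC1, a protein that binds unmethylated CpG. RPS4X, the single looped member of the 4 on chromosome X, had 49 contacts (36.3 to 64.8) against 22.6 expected, close to the median of 50 over the 37 loops on X. X may be present in 1 copy per cell, which was not corrected for.

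**Figure D3:**
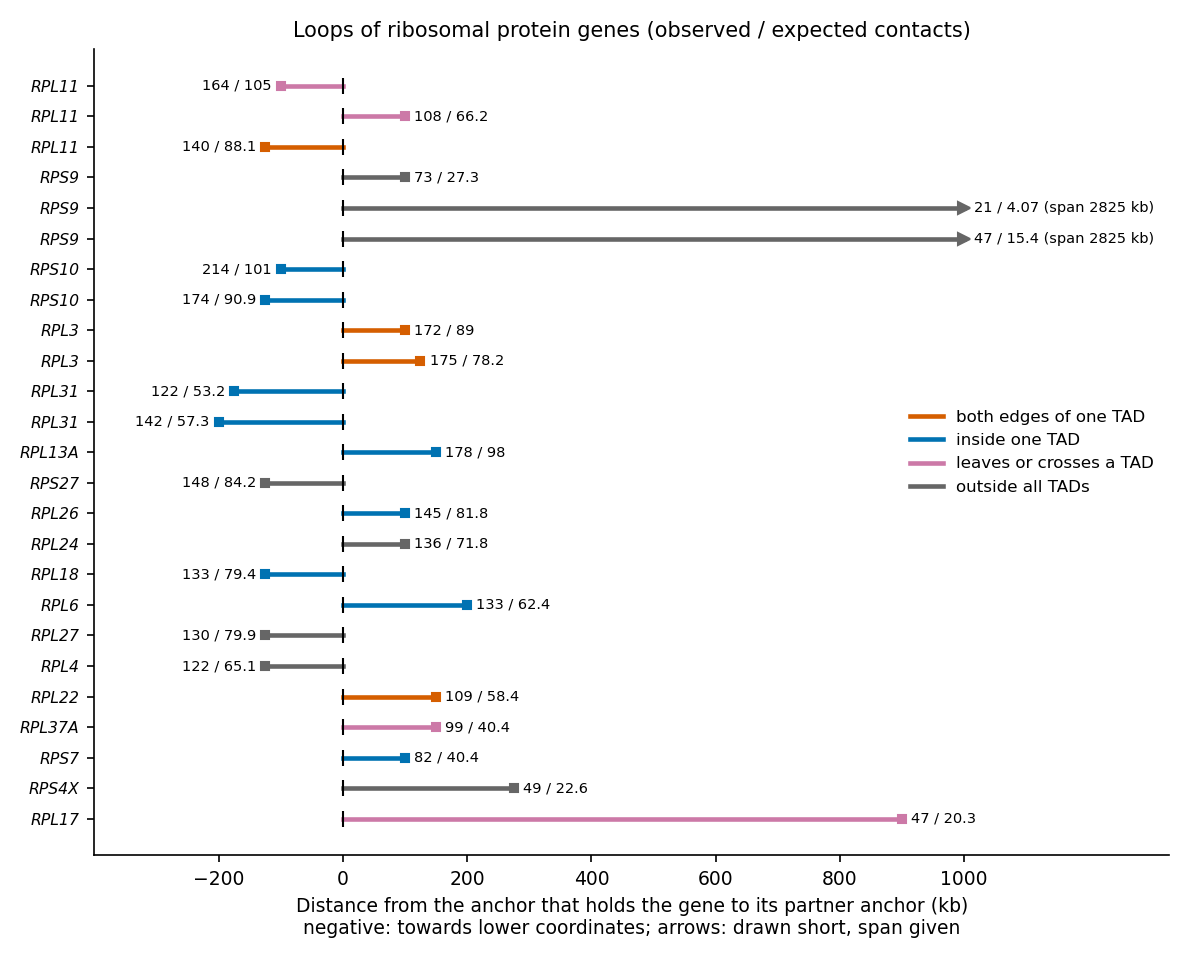
Each line is 1 of the listed loops of the ribosomal protein genes named in the text, drawn from the anchor that holds the gene (0) to its partner anchor (kb, negative towards lower coordinates), coloured by its place relative to TADs and marked with observed / expected contacts. All but 3 of the loops drawn reach 275 kb or less; the 2 RPS9 loops of 2825 kb are drawn short as arrows.

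Partner anchors were often at genes too. A protein-coding gene end, named or not, lay in the partner anchor of 20 of the 26 loops (76.9%). Over all placed loops, an anchor with a gene end had a gene end in its partner anchor in 56.3% of 3192 cases. Without the loops of chromosome 6 the count was 11 of 17 (64.7%), so 9 of the 20 came from that chromosome, and their part in the difference was not tested further.

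Loops were also placed relative to TADs. Loops whose anchors lay within 20 kb of the left and right edges of a single TAD numbered 5 of 26 (19.2%), against 25.8% of all placed loops. The order of these shares turned with a window of 10 kb, with 4 of 26 (15.4%) against 14.2%. The count was 8 (30.8% against 41.5%) with 40 kb, and 3 of 19 (15.8% against 20.8%) with 1 pixel per group of touching pixels. Among the 5 were both loops of RPL3, 1 of RPL11 and that of RPL22. A further 9 (34.6%) had both anchor midpoints inside a TAD without joining its edges, against 35.0% of all placed loops. Another 4 (15.4%) left or crossed a TAD, against 8.05%, and 8 (30.8%) lay outside all listed TADs, against 31.2%.

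By median the genes stood closer to TAD edges than protein-coding genes in general, as did other genes of translation. An end of 24 of the 77 genes (31.2%, interval 21.9 to 42.2%) lay within 20 kb of a listed TAD edge, against 18.7% of all protein-coding genes. The median distance from the nearer gene end to an edge was 56.7 kb against 107 kb, or 87.9 kb over named genes. Of the lists described below, mitochondrial ribosomal proteins had a median of 61.3 kb and translation factors 53.8 kb. Ribosome biogenesis genes had 41.6 kb and regulators of TOP mRNAs and ribosome stress 51.3 kb. The distance was thus not particular to the ribosomal protein genes. Small-subunit genes were near an edge in 12 of 31 cases (38.7%) and large-subunit genes in 12 of 46 (26.1%), again with overlapping intervals. Among the shortest quartile of genes the share was 11.9%, or 15.9% with named genes only, and 20 of the 68 ribosomal protein genes in that quartile (29.4%, interval 19.9 to 41.1%) were near an edge. From the sparsest to the densest quartile by gene density, 7 of 15, 4 of 19, 6 of 18 and 7 of 25 were. The shares of all genes there were 18.2, 23.2, 19.1 and 14.1%. In the second quartile the order was thus the other way, with 21.1% against 23.2%. None of the 4 genes on X was, where 3.15% of all genes were and the list holds 15 TADs.

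**Figure D4:**
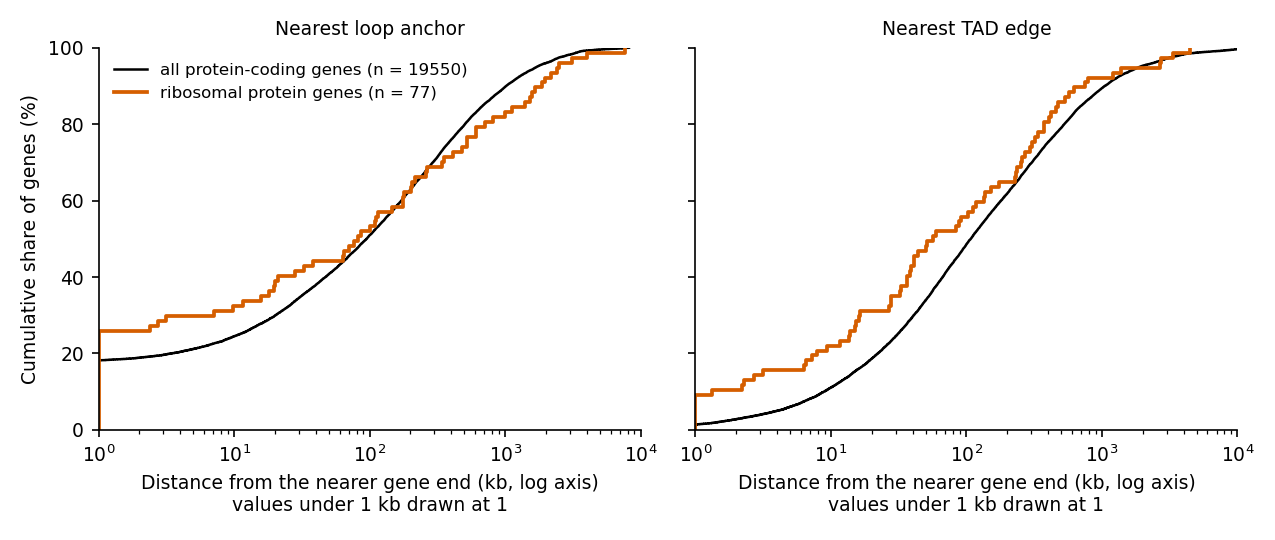
Cumulative share of genes (%) by distance from the nearer gene end to the nearest loop anchor (left) and TAD edge (right), in kb on a log axis with values under 1 kb drawn at 1. The ribosomal protein genes start above all protein-coding genes in both panels, with medians of 81.7 against 94.9 kb for anchors and 56.7 against 107 kb for edges; beyond about 500 kb from anchors their curve lies below.

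Of these 24 genes, 5 spanned the edge itself, 10 lay inside the TAD and 9 just outside it. Edges are listed in steps of 10 kb, so distances below that are finer than the list can resolve. The 5 closest were RPL31, RPL5, RPS27, RPS23 and RPL23A, all with an end under 1 kb from an edge. RPL31 spanned the right edge of the chromosome 3 TAD from 53020001 to 53290000, from which its loops lead inward. RPL5, the partner of RPL11 in the 5S particle, spanned the right edge of the TAD from 124190001 to 124360000 on chromosome 4 and had no loop, with the nearest anchor 9.79 kb away. RPS27 lay just outside the left edge of the TAD from 95700001 to 95880000 on chromosome 4, and its loop led away from that TAD. RPS23, a protein of the decoding centre, spanned the right edge of a TAD of 730 kb on chromosome 2, from 89950001 to 90680000. RPL23A, a docking site for the signal recognition particle at the tunnel exit, spanned the left edge of the TAD from 44960001 to 45160000 on chromosome 12.

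An anchor and an edge came together at 9 of the 77 genes (11.7%), against 6.30% of all protein-coding genes. Among them were RPL3, RPL6, RPL11, RPL18 of chromosome 6, RPL22, RPL31, RPS10 and RPS27. The other 15 genes near an edge had no loop. Besides RPL5, RPS23 and RPL23A these were RPS2, RPS15, RPS15A, RPS20, RPS24, RPS26, RPS28 and RPS29 of the small subunit and RPL10A, RPL13, RPL35 and RPLP1 of the large subunit.

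Inside a single TAD lay 24 genes (31.2%, interval 21.9 to 42.2%), against 26.0% of all protein-coding genes, which lies inside the interval. The TADs around them had a median length of 240 kb, from 140 to 1720 kb, against 260 kb for all placed TADs. The longest 3 held the short RPL18 entry on chromosome 1 (1720 kb), RPS21 on chromosome 17 (1510 kb) and RPS24 on chromosome 14 (1220 kb).

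Genes without a loop fell into both near misses and distant ones. An end of 6 of the 77 genes lay within 10 kb outside an anchor. The share was like that of all protein-coding genes, with 1408 of 19550. Among the 6 were RPL10A at 2.76 kb, RPL29 at 3.16 kb, RPS18 at 7.09 kb and RPL5 at 9.79 kb. These distances are smaller than the 25 kb width of an anchor. At the other extreme, 20 genes (26.0%) lay over 500 kb from any anchor, against 20.2% of all protein-coding genes. The 5 farthest were RPL39 on X at 7650 kb, RPS24 at 4000 kb, RPLP2 at 3120 kb, RPL8 at 2490 kb and RPS21 at 2410 kb. RPS24 was thus far from any listed loop while 13.9 kb from the left edge of its TAD.

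Chromosome 6 carried more of the looped genes than any other, with 5 of its 12 ribosomal protein genes at anchors (RPL11, RPL13A, RPL18, RPL22 and RPS9) and 9 of the 26 loops. The share of these 12 at anchors was 41.7% (interval 19.3 to 68.0%), and over all protein-coding genes of chromosome 6 it was 16.6%. Chromosome 6 was picked out for its number of looped genes, so that choice favoured a high share. Its ribosomal protein genes lay in dense surroundings, with a median of 43 other gene ends within 250 kb, against 23 for all its protein-coding genes. Chromosomes 2, 8, 9, 11, 16 and 17 were picked out because none of the 17 ribosomal protein genes on them had a loop. The 0 of 17 was thus fixed by that choice and says nothing about depletion. Over all protein-coding genes of these chromosomes 16.1% were at an anchor. Near a TAD edge were 3 of these 17, all on chromosome 2, against 17.0% of all genes there.

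Other genes of translation were placed in the same way. Of 74 mitochondrial ribosomal protein genes, which serve the separate ribosome of mitochondria, 17 (23.0%) were at anchors and 19 (25.7%) near an edge. MRPS23 and MRPS28 had 3 loops each and MRPL4 had 2, with a median of 242 contacts. Of 58 genes of ribosome biogenesis, 14 (24.1%) were at anchors and 23 (39.7%) near an edge. LSG1, a GTPase of late large-subunit maturation, had 4 loops, NOP10, of the pseudouridylation particle, had 3, and UTP4 had 2. Of 40 cytosolic translation factors, 8 (20%) were at anchors and 6 (15%) near an edge, led by EEF1G with 3 loops and EIF2B5 with 2. EEF1A1, the main elongation factor, had 1. For comparison, the ribosomal protein genes had 24.7% at anchors and 31.2% near an edge, and all protein-coding genes 17.3 and 18.7%. The differences between lists were not tested.

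Of 16 regulators of TOP mRNAs and ribosome stress, 3 were at anchors with 1 loop each: LARP1, which binds the TOP motif, with 152 contacts, its relative LARP4 with 145, and the transcription factor SP1 with 168. FAU, which encodes a ribosomal protein fused to a ubiquitin-like sequence, had 1 loop of 100 kb with 160 contacts, which it shared with MRPL49. Of the 7 paralogs left out by the rule that had an entry, 3 were at anchors. RPL26L1 on chromosome 16 had 5 loops of 175 to 225 kb, where RPL26 itself had 1. Touching pixels were counted singly here, so some of the 5 may belong to a single contact. RPS27L had 1 loop of 153 contacts, close to the 148 of RPS27. RPL36AL had 1, while RPL36A on X lay 203 kb from any anchor. RPL3L, RPL7L1, RPL10L and RPL22L1 had no loop.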

How the data were processed

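Per the submitters' processing notes, HiC-Pro 3.1.0 was used, and juicer_tools 1.9.9 made the list of loops, per the file headers. For each loop the authors deposited the raw count of observed contacts. With it came, per the file headers, the expected signal from 4 neighbourhoods (the donut is used here) and 4 FDR values (q-values), of which the largest was taken. The TAD list deposited by the authors holds positions only, and its caller, the genome build and any pooling of replicates are not stated in the sources used here.

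Genes came from a RefSeq table of Sscrofa11.1. As a check of the build, anchors held 0.858 protein-coding gene ends on average, against 0.586 to 0.698 when moved by 100 to 500 kb. Printed coordinates come from the deposited lists (1-based). Without strand in the gene table, start sites could not be used, so both gene ends were. Promoter and protein sequences were not used here, and the planned motif counts were not run. TAD placement of loops used the anchor midpoint for "inside" and distance from the anchor for edges.

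Members, gene lists and naming rules were chosen with earlier results of these data known. By rule, every member with a loop was named (the 10 with the most loops in full), the 5 without a loop nearest to and farthest from an anchor, the 5 nearest an edge, the paralogs and up to 3 genes of each list. A few genes that these rules would name are left out of the text. Other names were chosen after their values were seen. No hypothesis test was made, since no sample-level values exist. Shares have 95% Wilson and contacts exact Poisson intervals (scipy 1.17.1, Python 3.11.15). The code for distances to anchors and edges was tested with genes planted in listed anchors and against a direct calculation. Placement inside TADs and of loops was not part of that test. Alternatives were other loop sets, windows, gene positions and chromosomes.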

Additional observations from a re-analysis of the deposited data

How the results depend on the processing

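No replicate could be left out and no paired analysis was possible because the deposited lists carry no value per replicate. The start-site alternatives were not run because the gene table has no strand. Of 35 alternative values, 30 stayed within 1.5 times of the reported count or within the counting error of the reported median. The count of 19 genes at anchors became 11 (14.3%, against 9.37% of all genes) with the 1701 loops of lowest FDR, all 11 among the 19. It was also 11 (14.3% against 11.6%) when an end had to lie 5 kb inside the anchor. By gene midpoints it was 16 (20.8% against 9.98%). Counting any overlap of the gene span with an anchor, it stayed at 19 (24.7%), against 20.7% of all genes. The size of the gap to all genes thus depended on how a gene was placed. The 24 genes near a TAD edge became 2 (2.60% against 1.43%) with the 360 edges of adjoining TADs alone. They were 17 (22.1% against 11.1%) with a window of 10 kb and 33 (42.9% against 29.6%) with 40 kb. By gene midpoints they numbered 24 (31.2% against 10.9%). The 5 loops joining both edges of a TAD became 3 of 19 (15.8% against 20.8%) with 1 pixel per group of touching pixels. They numbered 8 of 26 (30.8% against 41.5%) with a window of 40 kb. With a window of 10 kb they were 4 of 26 (15.4%), where all loops had 14.2%, so the order of those shares turned. Leaving out chromosome 6 was a choice made after seeing the data. Then 14 of 65 genes (21.5% against 17.4% of all genes) were at anchors and 20 (30.8% against 18.6%) near an edge. Without the short RPL18 entry, also chosen afterwards, the counts were 19 of 76 and 24 of 76. Sequencing depth is unknown, and the 4 loops with under 50 contacts (RPS9, RPL17 and RPS4X) have the widest relative counting intervals. Without the 2 long RPS9 loops the median ratio was 1.92.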

Other observations

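The genes whose heterozygous loss defines a numbered type of Diamond-Blackfan anaemia were set beside the other ribosomal protein genes. This list was written from general knowledge after the values had been seen, so its counts are a description with no test. Its 18 symbols matched 19 entries, RPL18 counting at both its places. Of these, 8 (42.1%) were at a loop anchor, among them RPL11, RPL18 of chromosome 6, RPL26, RPL27, RPS7, RPS10 and RPS27. Among the other 58 ribosomal protein genes 11 were. Near a TAD edge were 12 of 19 (63.2%), against 12 of 58 (20.7%). Either applied to 15 of 19 (78.9%) and to 19 of 58 (32.8%). The exceptions were RPS19, RPL15, RPL35A and the short RPL18 entry. Over all protein-coding genes the shares were 17.3% at an anchor, 18.7% near an edge and 29.7% for either. Since the list was written after the values had been seen, this split cannot show where the gap of the whole family to all genes lies. The median gene span was 3.59 kb in the list and 3.94 kb in the others, and the median number of other gene ends within 250 kb was 14 and 20.5.

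Very close to a TAD edge, within 1 kb, lay 7 of the 77 ribosomal protein genes (9.09%), against 1.40% of all protein-coding genes and 1.46% of the named genes of the shortest quartile. The 7 were RPL5, RPL6, RPL13, RPL23A, RPL31, RPS23 and RPS27. Edges are listed in steps of 10 kb, and within that distance lay 17 (22.1%) against 11.1% of all protein-coding genes.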
